A study of Mus musculus with 6 samples.

Results

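The non-coding snoRNA host genes are RNA polymerase II genes whose spliced transcript encodes no known protein and whose introns carry small nucleolar RNAs. Of 10 such genes listed by mouse symbol (Gas5, Snhg1, Snhg3, Snhg4, Snhg5, Snhg6, Snhg7, Snhg8, Snhg12 and Epb41l4aos), 9 had an entry in the deposited expression table, and all 9 were among the 12336 genes that could be tested, out of 46983 genes in the count tables. Snhg7 had no entry there and is described only through the snoRNAs annotated within it. The measurements come from rRNA-depleted total RNA of naïve CD4 T cells (TCRb+, CD4+, CD62L+, CD44-, DAPI-) sorted from lymph nodes of male mice. There were 3 Control libraries (Rnmt fl/fl CD4cre -) and 3 Rnmt cKO libraries (Rnmt fl/fl CD4cre +). RNMT is the methyltransferase that completes the m7G cap on RNA polymerase II transcripts. Animals of both genotypes carry the floxed allele, on a C57B6/J background, with loxP sites around exon 3 of Rnmt, and the animals' age is not given in the sources used here. Cre under the Cd4 promoter acts from the double-positive thymocyte stage onwards, so loss of Rnmt precedes the mature naïve cell and coincides with the presence of the Cre transgene. The comparison asks what loss of Rnmt does to the steady-state level of each host RNA.

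snoRNAs guide chemical modification and cleavage of ribosomal RNA. Those of the box C/D class direct 2′-O-methylation, and those of the box H/ACA class direct pseudouridylation. In mammals most are cut out of introns, and the host exons that remain are in several cases exported, engaged by ribosomes and removed by nonsense-mediated decay. Many snoRNA hosts, like the ribosomal protein genes, start transcription at a C followed by an unbroken run of pyrimidines (the terminal oligopyrimidine, or TOP, motif), which is the sequence bound next to the cap by LARP1.

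The first 30 bases of 1 annotated transcript are shown for 7 of the hosts because the base at the cap and the run that follows define a TOP start. Where a host had a transcript opening with C and at least 4 further C or T, such a transcript was picked. Most annotated transcripts of each host open otherwise. They are GENCODE vM21 transcripts of the mm10 (GRCm38) mouse build, written 5′ to 3′, with the unbroken run of C and T from the first base in capitals.
Gas5-205: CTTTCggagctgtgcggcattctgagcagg
Snhg3-203: CTCTCTaggcgtcgctctcttggtgtgctt
Snhg5-204: CTTTTacgacggagcctaagatattctttg
Snhg6-203: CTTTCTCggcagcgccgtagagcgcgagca
Snhg8-201: CCCTCgcgcgcaggctcttgggagagcgtc
Snhg12-208: CCTTTCTCgcttcatccgcggtccctgtct
Snhg1-201: TTCTCTacaggtttgaggtgccaccttaca

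Counting a start as TOP-like when it opens with C followed by at least 4 further C or T, 6 of the 7 hosts shown had such an annotated start. Snhg1 was the exception. Its longest run of 6 pyrimidines, in the transcript shown, opens with T. Its longest run that opens with C is 3 bases, in Snhg1-203 and Snhg1-215. Among all tested genes with annotated transcripts, 1234 of 12296 (10.04%) had a TOP-like start, and among those with 5 or more transcripts 962 of 6286 (15.3%). The hosts have many annotated transcripts, and per transcript the shares were 12 of 72 (16.7%) for the 7 hosts shown and 1445 of 67860 (2.13%) for all tested genes. The tested genes include those on chromosome 18. An annotated start is a description of the letters only, and the start used in these cells was not measured.

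On mm10, Gas5 lies at chr1:161034422-161038539 (plus strand), Snhg6 at chr1:9941959-9944118 (minus), Snhg8 at chr3:123507552-123508404 (minus), Snhg12 at chr4:132308623-132311024 (plus), Snhg3 at chr4:132348014-132353686 (minus), Snhg5 at chr9:88521050-88522929 (minus), Epb41l4aos at chr18:33794892-33795986 (plus) and Snhg1 at chr19:8723475-8726443 (plus). Snhg4 is not in GENCODE vM21 and was placed by RefSeq at chr18:35553410-35558316 (GRCm38.p6), and RefSeq places Snhg7 at chr2:26637176-26640244. All 10 hold at least 1 annotated snoRNA within their bounds, and the annotation gives the 10 genes non-coding biotypes (processed transcript, lincRNA or lncRNA), as the name of the group says. Snhg3 overlaps the coding gene Rcc1 on the same strand, so that reads falling in exons of both were ambiguous and not counted. Snhg4 overlaps the coding gene Gm28285 and the non-coding AC121821.1, and without its strand and exons it could not be said whether its counts are affected in the same way. Gas5, Snhg3 and Snhg6 overlap a gene of the opposite strand, which sense counting separates. Reads on the wrong strand of a host numbered between 3 and 11 per library for Gas5 and between 0 and 4 for the other 8.

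The libraries held between 8873413 and 11277764 sense counts on genes. The share of uniquely mapped reads that fell in no gene ranged from 31.8% to 47.9% and did not follow genotype: it was below 40% in Control 1, Control 2 and Rnmt cKO 3 and above it in the other 3. Rnmt itself, counted over all its exons, was at 51.4, 58.6 and 57.8 CPM (TMM-scaled sense counts-per-million) in the controls and 41.9, 37.4 and 26.6 CPM in Rnmt cKO (log2 fold change -0.67, SE 0.20, adjusted p = 3.5e-04 by the edgeR exact test). Markers of other cells moved with genotype. Cycling-cell markers were called higher for 5 of 5, with a summed level of 33.5 to 41.5 CPM in the controls and 242 to 278 CPM in Rnmt cKO. B cell markers were called higher for 3 of 4 (25.1 to 30.5 against 34.8 to 56.8 CPM), the 1 tested plasma cell marker of 2 was higher (both summed, 1.39 to 2.23 against 6.01 to 28.3 CPM), and myeloid markers were higher for 1 of 3 tested (4.98 to 6.72 against 9.48 to 21.4 CPM). The 2 CD8 markers were lower (21.6 to 23.2 against 13.5 to 17.3 CPM), as were the 2 tested erythroid markers of 4 (4.52 to 7.27 against 0.633 to 1.16 CPM). Those 2 needed their control values to pass the filter (over 1 CPM in at least 3 libraries). Above 1 CPM in every control were 4 of the 5 cycling-cell, 2 of the 4 myeloid and 0 of the 2 plasma cell markers. Other tested markers of these 3 lists needed their Rnmt cKO values. Markers that enter in this way are more readily called in the direction of those values. Of 7 naïve CD4 T cell markers 1 was called lower and 2 higher (4266 to 4536 against 4929 to 5445 CPM), and of 3 activation or memory markers 2 were lower (177 to 203 against 158 to 195 CPM). None of these markers was at 0 in every library. The part of these markers in the results below was not tested, and in bulk RNA fewer cells of a type and less RNA per cell cannot be told apart. The labels number 3 replicates per genotype without saying that each is a separate animal, so the p-values measure the spread between these libraries.

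Of the 9 host genes tested, 8 were called lower in Rnmt cKO than in control cells and none higher. Over all 12336 genes, 6.84% were called lower and 8.0% higher at an adjusted p of 0.05. The members were chosen with earlier results of these data known, so the counts describe this list and are no independent test. In the same 8 hosts every Rnmt cKO library lay below every control, which held for 14.9% of all tested genes. The median log2 fold change of the 9 was -0.81, beside 0.01 for all tested genes. The exception was Epb41l4aos, which was lower on average but did not pass the test. Summed, the 9 host RNAs took 0.0320% ± 0.0021 (SD, n = 3) of sense counts in the controls and 0.0199% ± 0.00063 in Rnmt cKO.

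Gas5, growth arrest specific transcript 5, is the most abundant of the group and hosts a series of box C/D snoRNAs. Its level was 157, 151 and 130 CPM in the controls and 78.1, 85.7 and 78.4 CPM in Rnmt cKO, from 741 to 1515 counts per library. The groups were well apart, with the highest Rnmt cKO library at 85.7 and the lowest control at 130 CPM. Gas5 fell to 55.3% of the control level (log2 fold change -0.86, SE 0.09, adjusted p = 3.16e-14 by the exact test). Its share of the counts on all 9 hosts was similar in both groups, 43.7% in control and 42.3% in Rnmt cKO.

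**Figure D1:**
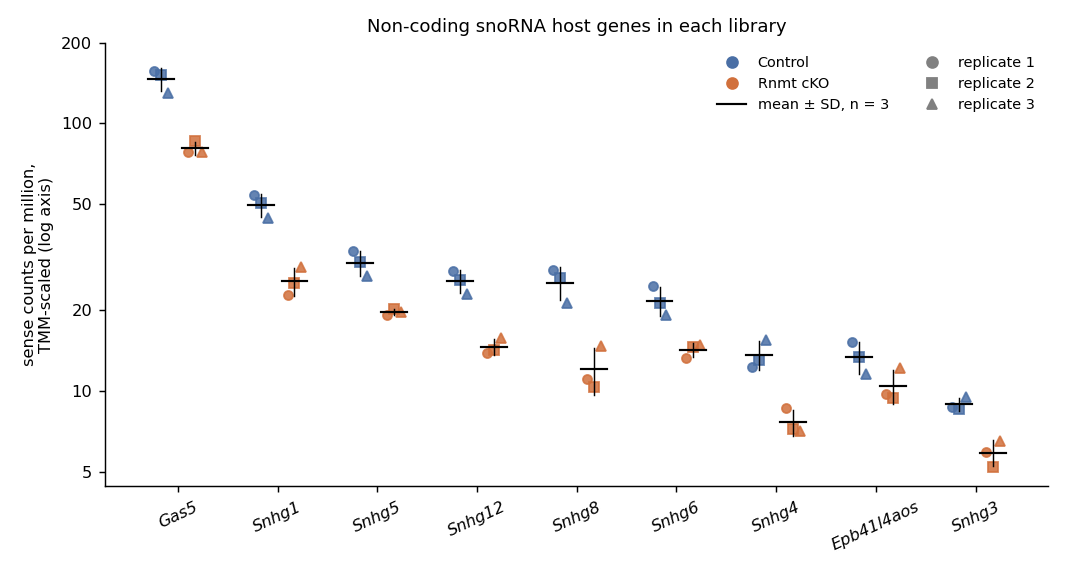
Level of each of the 9 host genes in each library, as TMM-scaled sense CPM on a log axis, with Control in blue, Rnmt cKO in orange and a symbol for each replicate. Horizontal bars give the mean and vertical bars the SD (n = 3). The groups are separate in every gene except Epb41l4aos, where Rnmt cKO replicate 3 (12.2 CPM) lies above Control replicate 3 (11.6 CPM).

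Snhg1, also known as the U22 host gene, carries another series of box C/D snoRNAs. It was at 54.1, 50.3 and 44.4 CPM in the controls and at 22.8, 25.3 and 29.0 CPM in Rnmt cKO. All 3 Rnmt cKO libraries were thus below the lowest control, and the level fell to 51.9% of control (log2 fold change -0.95, SE 0.13, adjusted p = 3.32e-11 by the exact test).

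Snhg8, the host of the box H/ACA snoRNA Snora24, had the largest fall of the 9 on the log2 scale. It was at 28.3, 26.5 and 21.4 CPM in the controls and at 11.1, 10.4 and 14.8 CPM in Rnmt cKO, that is 47.6% of control (log2 fold change -1.07, SE 0.20, adjusted p = 7.83e-08). Its SE was also the largest, and its range of 1 SE around the log2 fold change overlapped those of Snhg1, Gas5, Snhg4 and Snhg12.

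Snhg12 and Snhg3 lie on opposite strands of the same stretch of chromosome 4. Snhg12 hosts box H/ACA snoRNAs of the Snora16, Snora44 and Snora61 families together with Snord99. Its levels were 28.0, 26.0 and 23.0 CPM in the controls against 13.8, 14.2 and 15.7 CPM in Rnmt cKO (log2 fold change -0.81, SE 0.10, adjusted p = 3.49e-07). Snhg3 hosts the U17 snoRNAs, Snora73a and Snora73b, which take part in the cleavage of the ribosomal RNA precursor rather than in its modification. It had the fewest counts of the group, and stood at 8.68, 8.57 and 9.48 CPM in the controls and at 5.91, 5.22 and 6.53 CPM in Rnmt cKO. Its groups did not overlap (log2 fold change -0.60, SE 0.10, adjusted p = 0.0234), but the call, from 56 to 86 counts per library, was lost under more alternatives than that of any other host. The adjusted p of Snhg3 was 0.0552 by the quasi-likelihood test, 0.0837 by DESeq2 and 0.0881 with library-size scaling alone. Without Control replicate 1, 2 or 3 it was 0.0771, 0.089 and 0.125, and without Rnmt cKO replicate 1 or 2 it was 0.0897 and 0.172.

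Snhg5 and Snhg6 host box C/D snoRNAs, Snord50a and Snord50b in the former and Snord87 in the latter. Snhg5 was at 33.3, 30.3 and 26.9 CPM in the controls and 19.3, 20.3 and 19.7 CPM in Rnmt cKO (log2 fold change -0.61, SE 0.09, adjusted p = 7.12e-05). Snhg6 was at 24.6, 21.3 and 19.3 CPM in the controls and 13.3, 14.7 and 14.8 CPM in Rnmt cKO (log2 fold change -0.60, SE 0.11, adjusted p = 8.94e-04). In both genes the 3 Rnmt cKO libraries lay close together and below all controls, at 65.6% and 65.8% of the control mean.

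The remaining hosts are on chromosome 18. Snhg4, the host of Snora74a, was at 12.3, 13.0 and 15.5 CPM in the controls and 8.65, 7.24 and 7.07 CPM in Rnmt cKO (log2 fold change -0.84, SE 0.13, adjusted p = 1.62e-04). Like Snhg3, and unlike the other hosts, it was highest in Control 3. Epb41l4aos was at 15.3, 13.4 and 11.6 CPM in the controls and 9.70, 9.43 and 12.2 CPM in Rnmt cKO. The groups overlapped by 1 library on each side, and the log2 fold change of -0.36 (SE 0.16) gave an adjusted p of 0.206. Without Rnmt cKO replicate 3 its log2 fold change was -0.51 with an adjusted p of 0.0335 by the exact test, so the call depended on that library. Leaving it out also raised the share of all tested genes called lower, from 6.84% to 10.5%. Whether Epb41l4aos differed from the other hosts in its response was not tested.

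**Figure D2:**
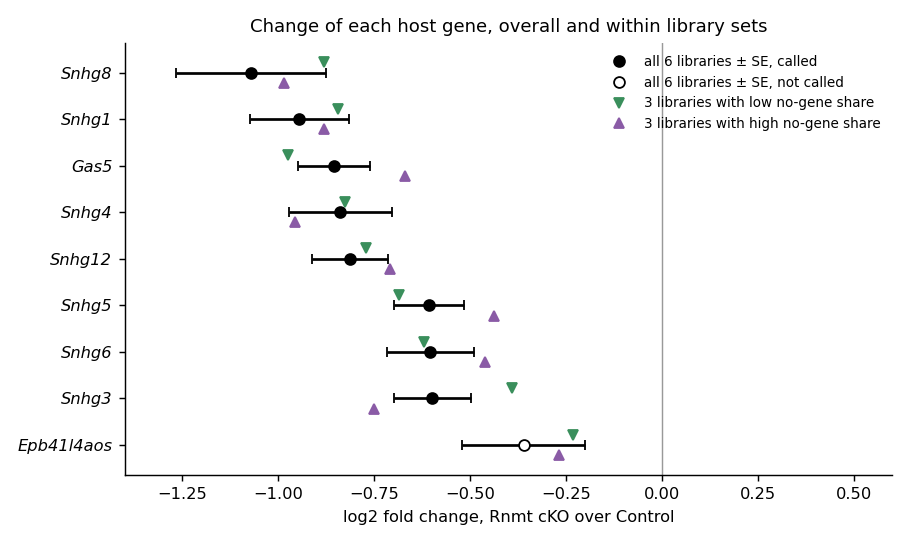
Log2 fold change of each host gene, Rnmt cKO over Control. Circles show all 6 libraries with their SE (filled where called), downward triangles the 3 libraries with a no-gene share below 40% and upward triangles the 3 above it. All values lie below 0, and all 6-library values lie between -1.07 for Snhg8 and -0.36 for Epb41l4aos.

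Because the share of reads in no gene varied between libraries, each host was also compared among libraries of like share. Among the 3 libraries with the low share (Control 1 and 2 against Rnmt cKO 3) all 9 log2 differences were negative, from -0.23 for Epb41l4aos to -0.97 for Gas5. Among the 3 with the high share (Control 3 against Rnmt cKO 1 and 2) they ran from -0.27 for Epb41l4aos to -0.98 for Snhg8. Gas5 moved from -0.97 to -0.67 between these sets and Snhg3 from -0.39 to -0.75, while Snhg1 stayed at -0.84 and -0.88. Each set has 1 library on one side, so these are values with no test.

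Levels can be ordered between genes only per length, as CPM divided by the summed exon length in kilobases (RPKM). In the controls this order was Gas5 (172 ± 16.6 RPKM, SD, n = 3), Snhg1 (57.3 ± 5.63), Snhg8 (42.0 ± 5.92), Epb41l4aos (31.2 ± 4.28), Snhg5 (28.9 ± 3.08), Snhg6 (22.2 ± 2.76), Snhg12 (18.1 ± 1.77) and Snhg3 (15.3 ± 0.856). The 3 libraries of Gas5, Snhg1 and Snhg8 did not overlap, whereas Snhg8 overlapped Epb41l4aos, Epb41l4aos overlapped Snhg5, Snhg6 overlapped Snhg12 and Snhg12 overlapped Snhg3. In Rnmt cKO the order was the same except that Epb41l4aos (24.3 ± 3.50 RPKM) stood above Snhg8 (19.97 ± 3.91), with overlapping libraries. Snhg4 was left out for want of an exon length in the annotation used.

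Next the snoRNAs themselves were examined. The annotation holds 35 snoRNA entries within the bounds of the 10 hosts, of which 10 are in Gas5 and 8 in Snhg1, and 29 of the 35 had no count in any library. A count of 0 allows up to 0.253 to 0.352 CPM, depending on the library (3 counts, for counting error only). Of the 29 entries, which are 60 to 196 bases long, 10 overlap an exon of the host or another snoRNA entry, where reads cannot be assigned to 1 gene, 17 overlap neither, and for the 2 in Snhg4 no host exons were in the annotation used. Hence these counts of uniquely mapped reads say little about most of the snoRNAs that the hosts carry, including all those of Gas5 and Snhg1. A further 3 entries, Snora73a, Snord87 and 1 entry of Snora43, were counted but stayed under the filter, and 3 of 132 to 205 bases were tested. The authors realigned the reads of naïve cells, kept multimapping ones and summed small RNAs by family. They report that many of the snoRNAs so detected were reduced in Rnmt cKO, and that count was not repeated here.

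Snora73b, 1 of the 2 snoRNAs called lower, is shown beside Snora73a, the other copy of U17 in Snhg3, because their likeness bears on how reads were assigned. They lie at chr4:132352322-132352526 (Snora73b) and chr4:132352775-132352979 (Snora73a) on the minus strand, and the ACA box near the 3′ end is in capitals.
Snora73b: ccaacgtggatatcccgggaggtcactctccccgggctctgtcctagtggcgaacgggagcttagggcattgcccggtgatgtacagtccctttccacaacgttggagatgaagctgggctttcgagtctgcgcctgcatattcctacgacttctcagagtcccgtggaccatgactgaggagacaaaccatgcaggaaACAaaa
Snora73a: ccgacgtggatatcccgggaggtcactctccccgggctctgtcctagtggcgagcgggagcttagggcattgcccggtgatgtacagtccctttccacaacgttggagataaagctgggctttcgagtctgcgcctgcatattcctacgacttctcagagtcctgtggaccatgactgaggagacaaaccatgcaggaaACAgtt

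The copies are identical at 198 of 205 positions (96.6%). Reads that fit both are not counted, and Snora73a also overlaps a host exon, so the split between the copies is uncertain. Snora73b had 4755, 3204 and 3064 counts in the controls and 872, 1165 and 2281 in Rnmt cKO, while Snora73a had 0 to 4. In scaled units Snora73b was at 558, 319 and 338 CPM in the controls and 92.0, 98.1 and 204 CPM in Rnmt cKO. The highest library of each group was the one with the lowest share of reads in no gene (Control 1 and Rnmt cKO 3), and the groups did not overlap. Snora73b fell to 32.4% of control (log2 fold change -1.62, SE 0.45, adjusted p = 2.18e-06). Its log2 difference was -1.05 among the low-share and -1.83 among the high-share libraries. The log2 fold change was -2.11 without Rnmt cKO replicate 3 and -1.32 without Control replicate 1. Whether Snora73b fell further than its host Snhg3 was not tested.

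Gm23639, annotated as a snoRNA within Epb41l4aos, was also called lower. It had 28, 19 and 27 counts in the controls and 8, 4 and 15 in Rnmt cKO, or 3.29, 1.89 and 2.98 against 0.844, 0.337 and 1.34 CPM. Rnmt cKO 1 and 2 lay under 1 CPM, so Gm23639 passed the filter only through its control values. A gene that enters the test in this way is more readily called lower than higher. The groups did not overlap (log2 fold change -1.68, SE 0.50, adjusted p = 0.00193), although its host did not pass the test. Its log2 difference was -0.81 among the low-share and -2.09 among the high-share libraries, and -2.24 without Rnmt cKO replicate 3. Snora17, a box H/ACA snoRNA and the only tested gene within Snhg7, was at 4.11, 3.88 and 3.86 CPM in the controls and 2.43, 2.78 and 2.86 CPM in Rnmt cKO. Its groups did not overlap either, but at 23 to 39 counts per library the adjusted p was 0.153 (log2 fold change -0.55, SE 0.07). Thus 2 of the 3 tested snoRNAs were called lower and none higher, and in all 3 every Rnmt cKO library lay below every control. Over all tested genes 6.84% were called lower and 8.0% higher, and 14.9% had every Rnmt cKO library below every control. With 3 genes, 1 of them tested only through its control values, these counts say little about the snoRNAs as a class.

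**Figure D3:**
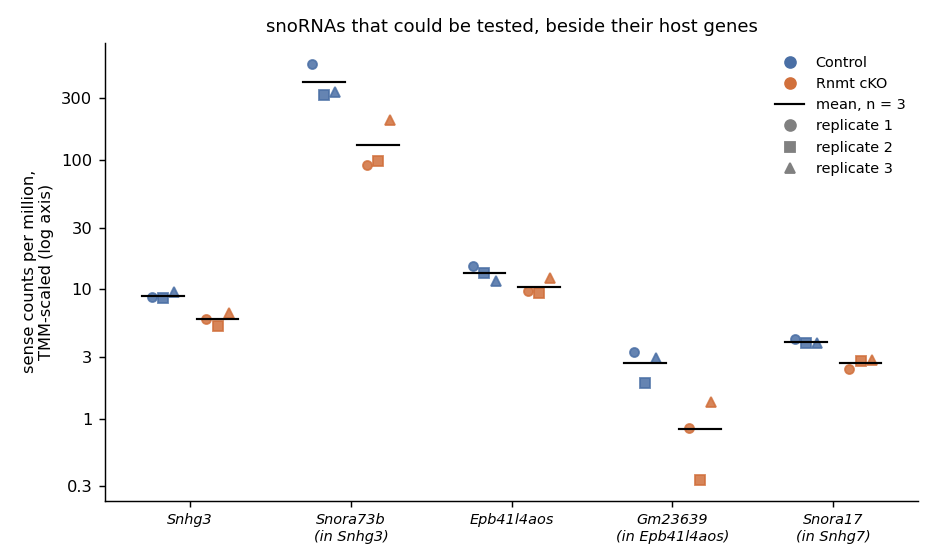
Level in each library of the 3 snoRNAs within host genes that could be tested, beside the host where it was measured, as TMM-scaled sense CPM on a log axis (blue Control, orange Rnmt cKO, bars the mean of 3). Snora73b stands at 319 to 558 CPM in the controls and 92.0 to 204 CPM in Rnmt cKO, and Gm23639 lies between 0.337 and 3.29 CPM.

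A host gene that shares its promoter region with a coding gene offers a comparison within the library that no scaling between libraries touches. Slc3a2, which encodes the heavy chain (CD98) of amino acid transporters, starts 106 bases from Snhg1 and is transcribed away from it. Slc3a2 was at 65.1, 66.8 and 58.3 CPM in the controls and 55.8, 53.1 and 65.3 CPM in Rnmt cKO. These groups overlapped, with a log2 fold change of -0.13 (SE 0.11, adjusted p = 0.547). The log2 ratio of Snhg1 to Slc3a2 counts was -0.27, -0.41 and -0.39 in the controls and -1.29, -1.07 and -1.17 in Rnmt cKO. All 3 Rnmt cKO ratios were below all control ratios, and the mean difference was -0.82 (exact two-sided permutation test, p = 0.1, the smallest that 3 against 3 libraries can give).

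No other host with a known strand had a partner that starts upstream of it on the other strand within 1000 bases, and Snhg4 and Snhg7 could not be searched because their strand was not in the tables used. Zbtb37, a zinc finger gene, starts 427 bases inside Gas5 on the opposite strand and was added as a second pair after the annotation had been seen. Zbtb37 was at 153, 160 and 182 CPM in the controls and 155, 160 and 109 CPM in Rnmt cKO, and did not pass the test (log2 fold change -0.23, SE 0.19, adjusted p = 0.339), except with the no-gene share as a covariate (log2 fold change -0.29, adjusted p = 0.00175). The log2 ratio of Gas5 to Zbtb37 was 0.04, -0.09 and -0.48 in the controls and -0.98, -0.90 and -0.48 in Rnmt cKO. Here Control 3 and Rnmt cKO 3 overlapped, and the mean difference of -0.61 gave an exact permutation p of 0.2.

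**Figure D4:**
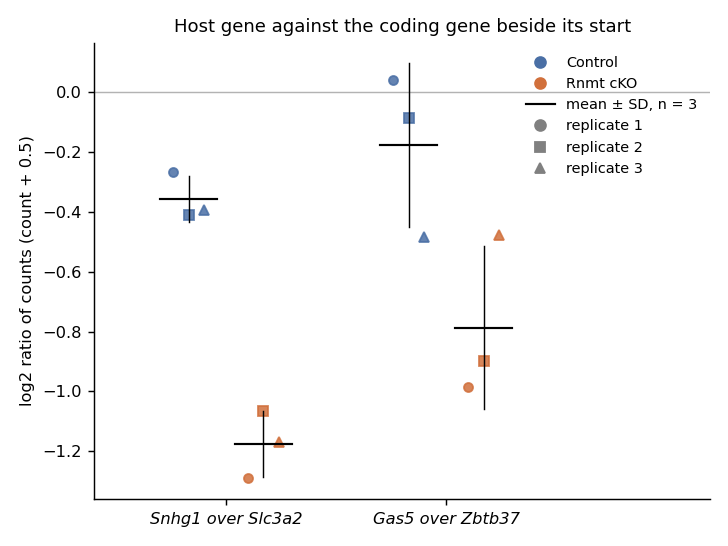
Log2 ratio of host to coding gene counts (with 0.5 added to each count) in each library, for Snhg1 over Slc3a2 and Gas5 over Zbtb37, with blue Control, orange Rnmt cKO, horizontal bars the mean and vertical bars the SD (n = 3). For Snhg1 the controls lie between -0.41 and -0.27 and Rnmt cKO between -1.29 and -1.07, and for Gas5 the groups meet at -0.48.

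Other snoRNA hosts, found by the same annotation rule, did not all move alike. Of 16 other tested hosts with a non-coding biotype in the annotation, which include Cct6a, a known chaperonin subunit gene listed there as a processed transcript, 2 were called lower and 3 higher, with a median log2 fold change of 0.06. Zfas1, host of the Snord12 family, was at 47.0, 33.3 and 31.6 CPM in the controls and 18.1, 17.9 and 19.9 CPM in Rnmt cKO (log2 fold change -0.998, SE 0.19, adjusted p = 8.33e-08), and 1110038B12Rik fell by 0.60 on the log2 scale (SE 0.16, adjusted p = 0.0235). In the other direction Snhg15 was at 15.7, 17.0 and 14.3 CPM in the controls and 25.5, 23.4 and 23.3 CPM in Rnmt cKO (log2 fold change 0.61, SE 0.08, adjusted p = 1.44e-04). The uncharacterised 2410006H16Rik (log2 fold change 0.68, adjusted p = 0.00172) and Gm29170 (0.69, adjusted p = 0.0171) rose too. Thus an Snhg symbol alone did not fix the direction, as Snhg15 rose in all 3 libraries above all controls. The counts of calls among these 16 hosts say little about them as a class. Among the 12336 tested genes 6.84% were called lower and 8.0% higher, so a few calls were due in any 16 genes.

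Among coding hosts, those for cytoplasmic ribosomal proteins were called lower in 27 of 30 and higher in none, with a median log2 fold change of -0.67. Examples are Rpl39 (-0.95, SE 0.18), Rps12 (-1.13, SE 0.24), Rpl10 (-0.82, SE 0.18) and Rpl12 (-0.97, SE 0.24). Of 178 other coding hosts 12 were called lower and 14 higher, with a median of 0.03. These shares are close to the 6.84% and 8.0% of all tested genes, so the counts show nothing particular to these hosts. The 4 lower ones with the lowest adjusted p were Nap1l1 (-0.55, SE 0.08), a histone chaperone, the translation elongation factor Eef1b2 (-0.81, SE 0.22), Tpt1 (-0.77, SE 0.20) and Taf1d (-0.50, SE 0.08). The 4 higher ones with the lowest adjusted p were Top2a (2.56, SE 0.09), which is also 1 of the 5 cycling-cell markers that were all called higher, Cep55 (2.67, SE 0.19), Ncapd2 (0.89, SE 0.09) and Pole (1.08, SE 0.19). Cep55 was at 0.821, 0.897 and 0.992 CPM in the controls and 4.43, 6.23 and 6.71 CPM in Rnmt cKO. It passed the filter only through its Rnmt cKO values, and such a gene is more readily called higher than lower. The split of higher and lower calls depended on the scaling. With library-size scaling alone, which moved the median of all genes from 0.01 to 0.14, the calls became 6 lower and 32 higher for other coding hosts, 1 lower and 5 higher for other non-coding hosts, 25 lower and 0 higher for ribosomal protein hosts, and 7 lower and 0 higher for the 9 host genes described here. Over all genes the same change took the calls from 844 lower and 987 higher to 535 lower and 1939 higher.

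**Figure D5:**
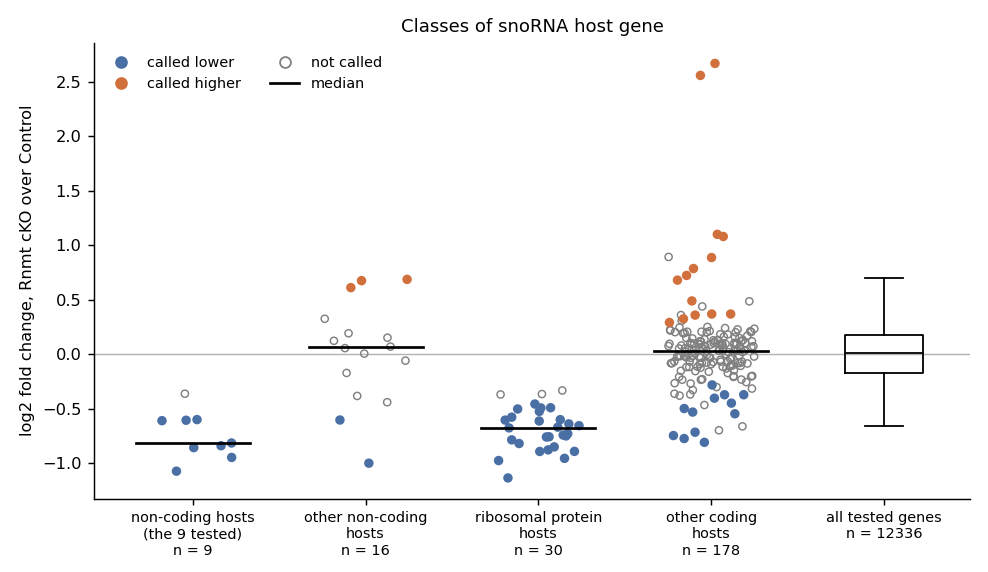
Log2 fold change (Rnmt cKO over Control) of tested snoRNA host genes by class, one point per gene, blue where called lower, orange where called higher and open where not called, with black lines at the median. The box for all 12336 tested genes spans the quartiles, with whiskers at percentiles 5 and 95. Medians are -0.81 for the 9 host genes described here, 0.06 for other non-coding, -0.67 for ribosomal protein and 0.03 for other coding hosts.

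Finally, the genes for the protein partners of these RNAs were examined at the RNA level. snoRNAs act within particles built on fibrillarin (Fbl), Nop56, Nop58 and Snu13 for box C/D, or on dyskerin (Dkc1), Nhp2, Nop10 and Gar1 for box H/ACA, and further factors assemble or transport them. Of 20 such genes tested, none was called lower or higher by the exact test, while before adjustment 1 was lower and 2 were higher at p below 0.05, and the median log2 fold change was 0.06. With library-size scaling alone 3 were called higher. Over all tested genes the exact test called 6.84% lower and 8.0% higher, so few calls were due among 20 genes and their absence says little. Fbl was at 35.7 ± 2.71 CPM (SD, n = 3) in control and 36.4 ± 4.14 CPM in Rnmt cKO, and Dkc1 at 84.6 ± 1.67 and 88.7 ± 8.52 CPM. Of 17 genes of nonsense-mediated decay and the exon junction complex, the pathway that removes several spliced host RNAs, 1 was called higher and none lower, with a median of 0.10, and that share is no higher than the 8.0% of all tested genes. The 1 gene was Upf2, at 91.5, 99.6 and 102 CPM in the controls and 131, 140 and 128 CPM in Rnmt cKO (log2 fold change 0.44, SE 0.06, adjusted p = 5.97e-05). RNA of Larp1, which encodes the TOP-binding protein, was at 202, 213 and 226 CPM in the controls and 269, 262 and 262 CPM in Rnmt cKO, above every control (log2 fold change 0.31, SE 0.05, adjusted p = 0.00933). For the protein, the authors report from western blots of naïve cells that LARP1 was unaltered in Rnmt cKO.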

How the data were processed

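RNA was extracted with Trizol, rRNA-depleted and sequenced as 75 base paired ends. The authors aligned reads with STAR 2.5.2b to mm10 with GENCODE vM12, and the deposited count tables hold uniquely mapped reads per gene for either strand and for each strand. Sense counts were used here. The authors' edgeR table, whose deposited per-sample values are length-scaled signal, was used for symbols and to check the strand (its fold changes and p-values were not used). Genes over 1 CPM in at least 3 libraries were TMM-scaled and tested with the edgeR 4.0.16 exact test in R 4.3.3, with Benjamini-Hochberg adjustment over 12336 genes at a threshold of 0.05. SEs come from log2 CPM per library with a prior count of 2. The test was tested on simulated data with known changes. DESeq2 1.42.0, quasi-likelihood fits, other scalings, filters and strands and leaving out each library were alternatives. GENCODE vM21 gave positions and nested snoRNAs, with 46488 of 46983 gene IDs found. Reads in no gene stayed out of library sizes (31.8% to 47.9% of unique reads). All 10 members, their partners and the tested snoRNAs were named, and of each other list up to 4 genes per direction. Members and lists were chosen with earlier results of these data known.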

Additional observations from a re-analysis of the deposited data

How the results depend on the processing

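The number of hosts called lower was 8 and lay between 6 and 9 under the alternatives, none turned higher under any, and no fold change reversed. The quasi-likelihood fit with the replicate number as a block (a paired analysis) called 6 lower, with Snhg3 (adjusted p = 0.147) and Snhg6 (adjusted p = 0.0649) past the threshold no longer, and over all genes it called 276 lower and 431 higher. Same-numbered libraries did not deviate together (correlations -0.21, -0.016 and -0.35). The largest positive correlations, 0.35 for Control 1 with Rnmt cKO 3 and 0.29 for Control 3 with Rnmt cKO 2, joined libraries of like no-gene share. With 3 libraries per group this check cannot decide whether the numbers mark a shared batch, and the labels do not say. Leaving out 1 library called 7 to 9 hosts lower, and between 4.52% and 10.5% of all tested genes. The snoRNAs called lower were 1 in place of 2 when more than 1 CPM was required in all 6 libraries, which removes Gm23639, and 1 with either-strand counts, where Snora73b and Snhg3 were not tested because a gene of the opposite strand overlaps both. Snhg3 missed the threshold under 10 of 14 alternatives, Snhg6 under 1 of 15, and the other 6 called hosts under none. Snhg3 had the fewest counts of the hosts, 56 to 86 per library, and whether depth or its smaller fold change set this was not tested.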
